A study of Mus musculus with 6 samples.

Results

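The translation initiation factors are the proteins that bring the small ribosomal subunit, the initiator tRNA and the mRNA together at the start codon. Their genes were taken from a table of FPKM values (fragments per kilobase of a gene's transcripts, scaled to the fragments mapped in the library) as every row whose symbol begins with Eif and a digit from 1 to 6, without the eIF2 kinases and without Eif2s3y, which left 68 of 21965 genes. RNA came from mouse samples labelled lung tissue, in 2 groups of 3 libraries, Aa-cko and Aa-flox. The labels do not expand Aa, do not name the gene that cko refers to and give no strain, age, sex, Cre driver or treatment for either group. The series title names Lkb1, alpha tocopherol and the ferroptosis of group 2 innate lymphoid cells, and its last words set Aa-cko against Aa-flox, the comparison made here. Nothing says that the replicates of a group were separate animals, so the p-values cover the variation among these libraries alone, and part or all of it may be technical.

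As background, eIF2 carries the initiator tRNA as a GTP complex, and eIF2B recharges eIF2 with GTP after each round. Phosphorylation of the alpha subunit of eIF2 turns it into an inhibitor of eIF2B, which is how stress kinases slow protein synthesis. The scaffold eIF3 and the small factors eIF1 and eIF1A prepare the small subunit, and eIF4E, eIF4G and the helicase eIF4A bind the mRNA cap and unwind its leader. The eIF4E-binding proteins compete with eIF4G for eIF4E until mTOR phosphorylates them, and eIF5 and eIF5B complete start codon selection and subunit joining. Activated and dividing lymphocytes are known for high rates of protein synthesis.

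The initiation factor genes that passed the test were all lower in the Aa-cko libraries. Of 48 members that reached 1 FPKM in at least 3 libraries, 19 (39.6%) were lower in Aa-cko at an adjusted p under 0.05 by limma, 0 were higher and 29 did not pass. Among all 10849 genes tested, 23.2% were lower and 19.2% were higher. Among the 5712 tested genes with a mean of at least 10 FPKM, where 45 of the members lie, 27.8% were lower and 19.9% were higher. No member was higher at an unadjusted p under 0.05 either, and 25 were lower. The share of all tested genes at that unadjusted threshold is not given, so such counts, here and below, have no comparison. The members' median log2 fold change, on the scale of log2(FPKM + 1) and always Aa-cko minus Aa-flox, was -0.29, against -0.05 over all tested genes. Every Aa-cko value lay below every Aa-flox value in 26 members, where 29.6% of all tested genes did the same, and above it in 1 member, where 23.8% of all tested genes did.

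The number of calls depended on the scaling of the libraries. Under upper quartile scaling the median log2 fold change over the whole table became 0.07, with 10 members lower and 1 higher, and 2714 of all genes were higher and 1730 lower, where the values as deposited gave 2087 higher and 2515 lower. Scaled to a common sum (the TPM scale), 27 members were lower and 1 was higher, Eif4ebp3, which reached the filter on that scale. Over all genes, 2821 were then lower and 1621 higher, so the calls shifted down across the whole table. Under each of 17 alternatives the members' median lay below that of all tested genes, with a difference of log2 -0.29 to -0.19. The stricter threshold, the fit without an intensity trend and the block on replicate number cannot change a fold change (medians again -0.291 and -0.050). Scaling shifts a whole library, members and other genes much alike, so the alternatives are no separate support. Of the 19 lower members, 10 kept the call under every alternative (Eif1a, Eif1ad, Eif1b, Eif2s1, Eif2s2, Eif3c, Eif4a3, Eif4b, Eif4ebp1 and Eif4enif1), and 0 of the 19 changed sign.

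**Figure D1:**
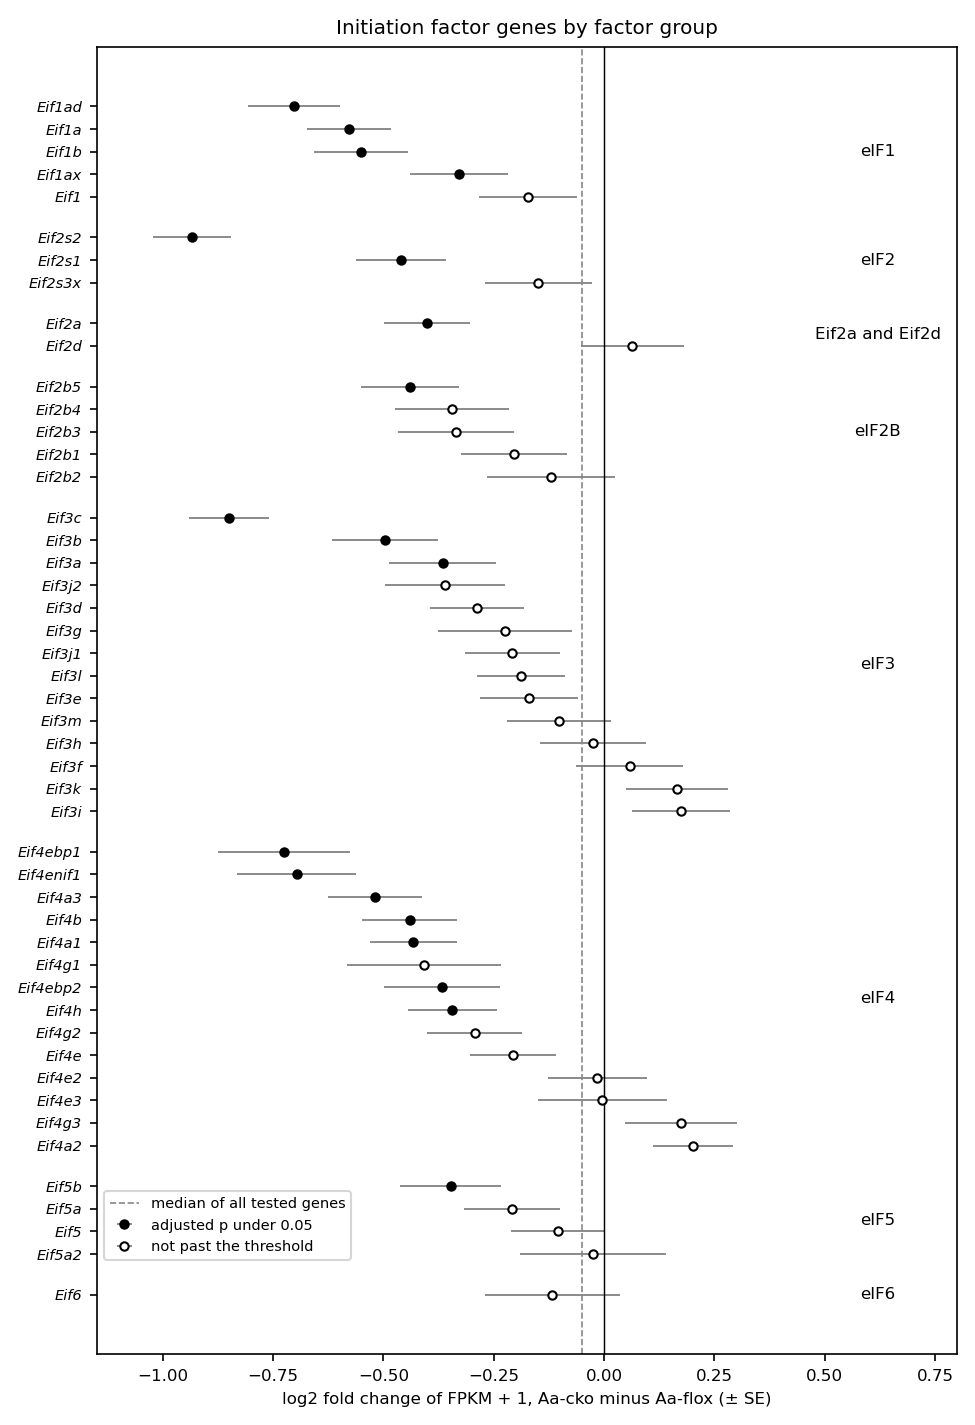
Log2 fold change of FPKM + 1 (x axis, Aa-cko minus Aa-flox, bars are SE) for the 48 tested initiation factor genes, grouped by factor. Filled points are the 19 genes with an adjusted p under 0.05, all to the left of 0, and the dashed line is the median of all tested genes (-0.05).

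Cell type markers differed between the groups, and their part in the results below was not tested. By the spacing of low values they held 14.4 to 17.5 M fragments, so that 1 FPKM of a 2 kb gene rested on 28.8 to 35.0 fragments, and fewer cells of a type cannot be told apart from less RNA per cell. Summed over 10 T cell markers the level was 799 to 849 FPKM in Aa-cko and 1486 to 1835 in Aa-flox, with 7 of 10 lower. Over 6 proliferation markers, Mki67 and Cdk1 among them, it was 81.5 to 104.6 FPKM in Aa-cko and 204 to 244 in Aa-flox, with 6 of 6 lower. The 8 alveolar macrophage markers summed to 6044 to 8198 FPKM in Aa-cko and 2525 to 2947 in Aa-flox, and the 8 B cell markers to 172 to 216 FPKM in Aa-cko and 72.6 to 96.2 in Aa-flox, with all members of both lists higher. None of these markers was at 0 in all libraries. Of 9 markers of group 2 innate lymphoid cells 3 were higher and 4 lower, with sums of 216 to 249 FPKM in Aa-cko and 356 to 432 in Aa-flox. Most of that gap lay in the cytokine genes Il13 (mean 7.51 FPKM in Aa-cko and 95.4 in Aa-flox) and Il5 (15.8 and 73.9). Gata3 and Il1rl1 were the other lower genes, and Rora, Klrg1 and Il17rb were the 3 higher ones. The 6 lung epithelium markers summed to 141 to 183 FPKM in Aa-cko and 128 to 159 in Aa-flox, of which Scgb1a1, the club cell secretory protein gene, gave 136, 167 and 126 FPKM in Aa-cko and 138, 125 and 111 in Aa-flox. Of these 6, Sftpb was higher (0.59), Epcam was lower (-1.06) and 4 did not pass, among them Sftpc, the surfactant protein C gene, at 2.47, 4.49 and 4.15 FPKM in Aa-cko and 4.59, 2.62 and 2.23 in Aa-flox. Stk11, the gene of LKB1, read 62.7, 61.7 and 53.7 FPKM in Aa-cko and 64.1, 55.8 and 51.8 in Aa-flox (log2 0.05 ± 0.11, adjusted p = 0.721). The labels do not say that cko refers to this gene, and a value per whole gene need not show the loss of some exons.

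Of the small factors, 4 of 5 tested genes were lower (80%, against 23.2% of all tested genes) and Eif1 did not pass. Eif1ad, which encodes a protein with an eIF1A domain, read 14.4, 15.1 and 15.6 FPKM in Aa-cko and 25.4, 23.5 and 26.5 in Aa-flox. The groups were well apart, with a log2 fold change of -0.70 ± 0.10 (SE, adjusted p = 0.000684). The gene spans positions 5366741 to 5371526 of chromosome 19 (mm10, plus strand). Of the 50-base stretches of its transcripts, 13.2% also occur in transcripts of Banf1, on one strand or the other. Eif1a, an autosomal gene of eIF1A, which holds the ribosome in its scanning state, stood at 34.3, 31.8 and 33.9 FPKM in Aa-cko and 48.1, 48.8 and 54.2 in Aa-flox (-0.58 ± 0.10, adjusted p = 0.00134). Eif1ax, its X-linked counterpart, stood at 12.7, 14.8 and 12.5 FPKM in Aa-cko and 16.8, 16.95 and 16.97 in Aa-flox (-0.33 ± 0.11, adjusted p = 0.037). The call for Eif1ax ended in 9 of 17 alternatives, among them the omission of any single library except the second Aa-cko one, with adjusted p up to 0.209.

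Eif1, which guards the accuracy of start codon choice, was among the most abundant members, at 502, 565 and 484 FPKM in Aa-cko and 624, 581 and 543 in Aa-flox. The groups overlapped and the gene did not pass (-0.17 ± 0.11, 95% interval -0.42 to 0.07, adjusted p = 0.232). Of the 50-base stretches of Eif1, 19.2% also occur in transcripts of other genes. Its paralog Eif1b fell to 21.7, 27.0 and 23.9 FPKM in Aa-cko, against 36.03, 35.1 and 36.2 in Aa-flox (-0.55 ± 0.11, adjusted p = 0.00282). Its first exon overlaps D830035M03Rik on the other strand, and since no source says that counting used strand, reads of these genes cannot be told apart there. Another 16 genes of the eIF1 group, on chromosome 12 and named Eif1ad with a number, were listed at 0 in all 6 libraries.

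Of the 3 subunits of eIF2, 2 were lower (66.7%, against 23.2% of all tested genes) and Eif2s3x did not pass. Eif2s2, the beta subunit, which binds the GTPase-activating factor eIF5, had the largest fall of all 48 tested members, at 76.4, 81.3 and 74.9 FPKM in Aa-cko and 146, 150.4 and 150.2 in Aa-flox. No Aa-cko library came near an Aa-flox one, the mean fell by 48.0% and the log2 fold change was -0.93 ± 0.09 (adjusted p = 8.09e-05). The gene spans positions 154871410 to 154892935 of chromosome 2 (mm10, minus strand), and 10.3% of its 50-base stretches are shared with other genes, chiefly Gm9892. Eif2s1, the alpha subunit that the stress kinases phosphorylate, read 30.6, 31.5 and 28.5 FPKM in Aa-cko and 41.3, 45.6 and 39.0 in Aa-flox (-0.46 ± 0.10, adjusted p = 0.00541). Eif2s3x, the gamma subunit that holds GTP and the tRNA, read 62.2, 50.9 and 69.6 FPKM in Aa-cko and 67.1, 64.4 and 69.9 in Aa-flox, overlapping between groups (-0.15 ± 0.12, interval -0.42 to 0.12, adjusted p = 0.346). For Eif2s3x, 34.6% of 50-base stretches are shared with other genes, chiefly Gm2223, and its level is uncertain to that extent.

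Since FPKM is per length, levels of 2 genes can be set against each other within a library. The ratio of Eif2s2 to Eif2s1, chosen after the values were seen and therefore without a test, was 2.50, 2.58 and 2.63 in Aa-cko and 3.54, 3.29 and 3.85 in Aa-flox. The ratio of Eif2s2 to Eif2s3x was 1.23, 1.6 and 1.08 in Aa-cko and 2.18, 2.34 and 2.15 in Aa-flox. In both ratios the groups stood apart, with less Eif2s2 RNA relative to either partner in every Aa-cko library than in any Aa-flox one. Since Eif2s2 had the largest fall of the tested members, lower ratios follow from the single-gene values and are no further result. Its RNA still exceeded that of both partners in every library, and protein was not measured.

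**Figure D2:**
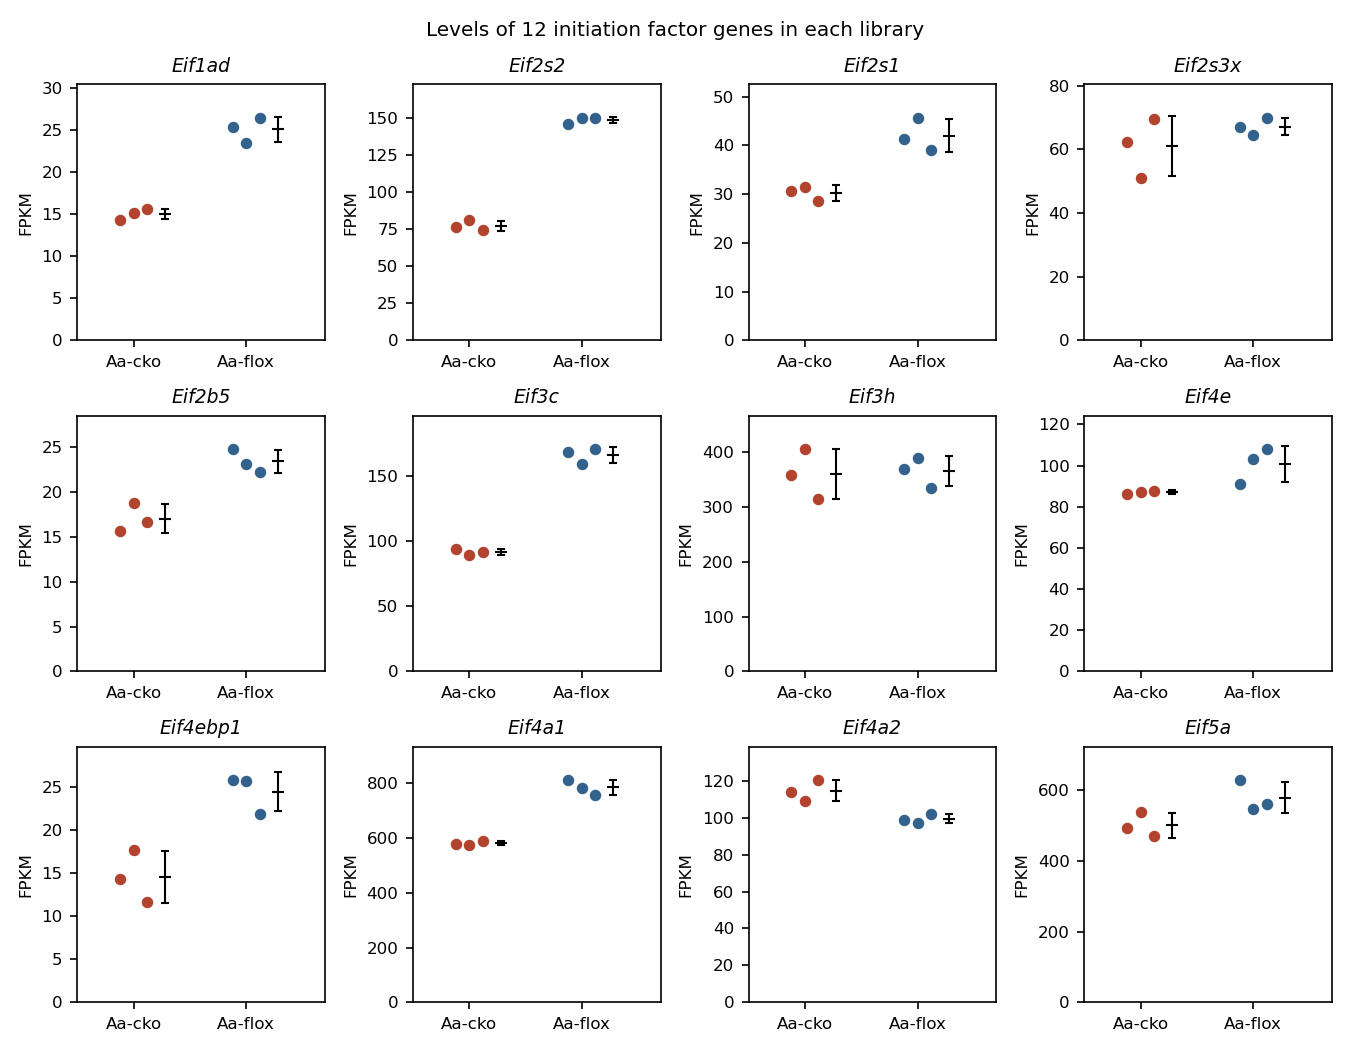
FPKM (y axis, from 0) of 12 initiation factor genes in each library, Aa-cko in red and Aa-flox in blue, with mean ± SD beside the points (n = 3 each). Relative to the Aa-flox mean, Eif2s2 and Eif3c show the widest gaps of the 12, Eif2s3x and Eif3h overlap, and Eif4a2 is higher in every Aa-cko library while Eif4a1 is lower.

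Of 2 genes named for eIF2 that encode no subunit of it, Eif2a was lower and Eif2d did not pass. Eif2a, an initiator tRNA carrier outside the main pathway, read 25.8, 27.1 and 26.8 FPKM in Aa-cko and 34.6, 33.8 and 38.0 in Aa-flox (-0.40 ± 0.10, adjusted p = 0.00833), a call that ended under upper quartile scaling (-0.27, adjusted p = 0.0528). Eif2d, which helps to recycle ribosomes after termination, read 13.0, 15.2 and 13.0 FPKM in Aa-cko and 13.9, 12.1 and 13.2 in Aa-flox (0.06 ± 0.12, interval -0.20 to 0.33).

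In the exchange factor eIF2B all 5 genes had negative fold changes, as did 5865 of the 10849 tested genes, and 1 passed. A share of 20% lower stands near the 23.2% of all tested genes. Eif2b5, the catalytic epsilon subunit, stood at 15.6, 18.8 and 16.7 FPKM in Aa-cko and 24.8, 23.2 and 22.3 in Aa-flox (-0.44 ± 0.11, adjusted p = 0.0103). Its groups did not overlap, and the call ended under upper quartile scaling and without the first Aa-cko library (highest adjusted p = 0.0664). Eif2b4, the delta subunit, missed the threshold at 12.2, 14.1 and 10.5 FPKM in Aa-cko and 15.3, 15.1 and 16.9 in Aa-flox (-0.34 ± 0.13, adjusted p = 0.0543). It passed without the second Aa-cko library. Eif2b3, the gamma subunit and the least abundant of the 5, read 3.13, 3.64 and 3.60 FPKM in Aa-cko and 5.24, 4.42 and 4.25 in Aa-flox (-0.34 ± 0.13, adjusted p = 0.0638). Eif2b1 and Eif2b2, the alpha and beta subunits, averaged 12.7 ± 0.888 and 35.4 ± 7.35 FPKM in Aa-cko and 14.8 ± 1.53 and 38.0 ± 1.79 in Aa-flox (SD, n = 3 each), with log2 fold changes of -0.20 and -0.12 and overlapping groups.

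The 14 genes of eIF3 ranged from -0.85 to 0.17 on the log2 scale, with 3 lower, 0 higher and 11 not past the threshold. A share of 21.4% lower stands near the 23.2% of all tested genes. Eif3c, a core scaffold subunit, accounted for the widest gap, at 93.9, 89.0 and 91.3 FPKM in Aa-cko and 168, 159 and 170.5 in Aa-flox. The Aa-cko libraries lay close together, and the log2 fold change was -0.85 ± 0.09 (adjusted p = 0.000128). Eif3c spans positions 126546455 to 126566411 of chromosome 7 (mm10, minus strand). Eif3b, a scaffold subunit that contacts eIF1 and eIF3a, read 69.2, 76.3 and 60.1 FPKM in Aa-cko and 108, 95.1 and 87.6 in Aa-flox (-0.50 ± 0.12, adjusted p = 0.00861, and 0.057 under upper quartile scaling). Eif3a, the largest subunit, read 74.0, 78.5 and 95.6 FPKM in Aa-cko and 97.6, 104 and 118 in Aa-flox (-0.37 ± 0.12, adjusted p = 0.035). The highest Aa-cko value of Eif3a lay just under the lowest Aa-flox one, and its call ended in 8 of 17 alternatives, among them the omission of the first or the second Aa-cko library or of the second or the last Aa-flox library (highest adjusted p = 0.162).

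Eif3h, a subunit of the regulatory arm, read 358, 406 and 315 FPKM in Aa-cko and 370, 390 and 335 in Aa-flox, the highest levels in the complex (-0.03 ± 0.12, interval -0.30 to 0.24, adjusted p = 0.882). Of the 50-base stretches of Eif3h, 20.3% are shared with other genes, chiefly AC122253.2. Eif3k and Eif3i had positive fold changes of 0.17 each, at 232, 254 and 198 FPKM in Aa-cko and 214, 204 and 189 in Aa-flox for Eif3k, without passing (adjusted p = 0.271 and 0.23). Eif3f, Eif3e and Eif3m did not pass either, with log2 fold changes of 0.06, -0.17 and -0.10. Eif3d, the subunit with a cap-binding surface of its own, missed the threshold at -0.29 ± 0.11 (adjusted p = 0.0521) with no overlap between groups, and it passed without the second Aa-cko library (adjusted p = 0.0363). For Eif3d, 37.2% of the 50-base stretches are shared with Gm17638. Eif3g and Eif3l stood at -0.23 and -0.19. Eif3j1 and Eif3j2, copies of the loosely bound j subunit, had -0.21 and -0.36 and did not pass, though Eif3j2 did without the last Aa-cko or the first Aa-flox library (adjusted p = 0.0241 and 0.0387). Of the 50-base stretches of Eif3j2, 90.8% are shared with Eif3j1, and of those of Eif3j1, 36.6% are shared with Eif3j2, so the level of Eif3j2 in particular is uncertain. The 8 subunits of the structural octamer (a, c, e, f, h, k, l and m) had a median of -0.14 with 2 lower, and the other 6 genes a median of -0.26 with 1 lower.

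**Figure D3:**
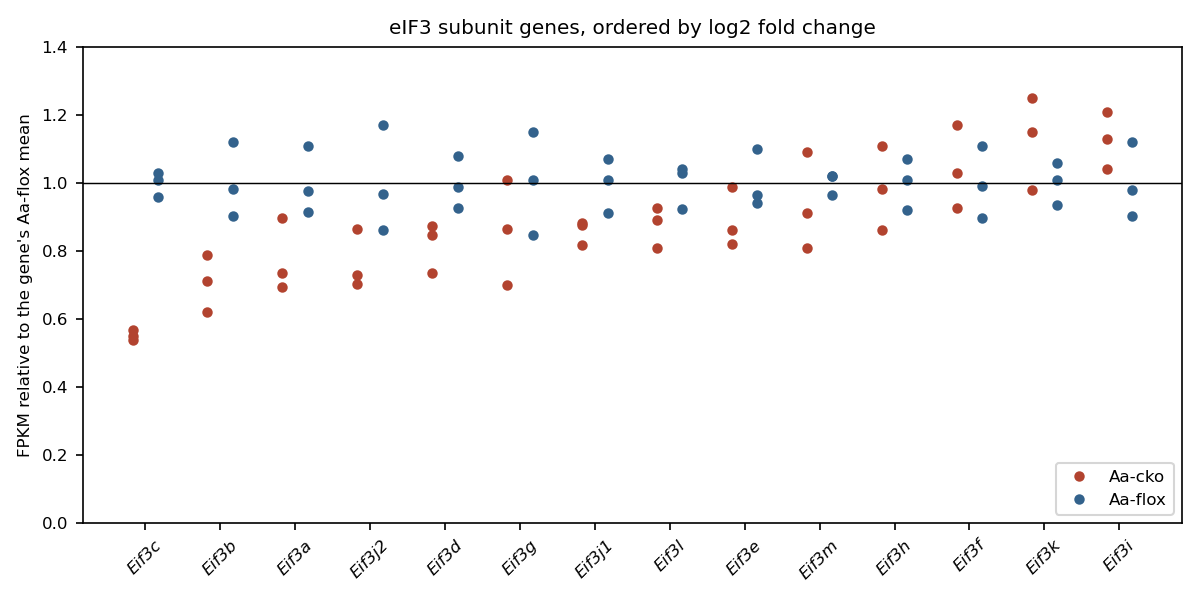
FPKM of each eIF3 gene in each library, divided by the gene's mean over the Aa-flox libraries (y axis, from 0), ordered by log2 fold change, Aa-cko in red and Aa-flox in blue. Eif3c lies at 0.537 to 0.567 in the Aa-cko libraries. The groups overlap for Eif3j2, Eif3g and Eif3l and for every gene from Eif3e to the right.

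Of 14 tested genes of the eIF4 group 7 were lower, 0 higher and 7 did not pass, a share of 50% against 23.2% of all tested genes. The genes that fell encode helicases, their cofactors and proteins that bind eIF4E, while none of the eIF4E and eIF4G genes passed (0 of 3 each, and 0 and 2 at an unadjusted p under 0.05). Eif4ebp1, the mTOR-regulated inhibitor of eIF4E, read 14.3, 17.7 and 11.6 FPKM in Aa-cko and 25.8, 25.7 and 21.8 in Aa-flox (-0.73 ± 0.15, adjusted p = 0.00387). Its gene spans positions 27260329 to 27276674 of chromosome 8 (mm10, plus strand). Eif4enif1, which encodes the eIF4E transporter 4E-T, read 12.3, 11.9 and 16.3 FPKM in Aa-cko and 22.7, 20.9 and 23.4 in Aa-flox (-0.70 ± 0.13, adjusted p = 0.00279). For both genes every Aa-cko value lay well under every Aa-flox value.

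Eif4ebp2, the second binding protein, read 20.2, 15.7 and 21.3 FPKM in Aa-cko and 24.7, 22.98 and 26.5 in Aa-flox (-0.37 ± 0.13, adjusted p = 0.0447). This call ended in 10 of 17 alternatives, among them the omission of any single library except the last Aa-cko one. Eif4ebp3, the last of the family, did not reach the filter and stood at 0.873, 0.789 and 0.934 FPKM in Aa-cko, or about 9, 10 and 11 fragments, and 0.414, 0.107 and 0 in Aa-flox, about 5, 1 and 0 fragments. It was the only member called higher when no filter was used.

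Eif4e, the cap-binding protein itself, read 86.0, 87.2 and 87.8 FPKM in Aa-cko and 91.2, 103 and 108 in Aa-flox. The groups did not overlap, but the difference did not pass (-0.21 ± 0.10, interval -0.42 to 0.01, adjusted p = 0.114). Eif4e2, a cap-binding repressor, and Eif4e3, a divergent cap-binding paralog, had log2 fold changes of -0.01 and -0.00 with intervals of -0.26 to 0.24 and -0.33 to 0.32. Eif4e1b, an oocyte paralog, was listed at 0 in all libraries. The ratio of Eif4e to Eif4ebp1 was 6, 4.94 and 7.54 in Aa-cko and 3.53, 4 and 4.95 in Aa-flox. The groups touched at 4.94 and 4.95, and the exact permutation test gave p = 0.2, two-sided (adjusted over 6 ratios 0.4), where the smallest p that 3 against 3 libraries allow is 0.1. The ratio of Eif4e to Eif4ebp2 overlapped more widely (log2 difference 0.18, exact p = 0.4, adjusted 0.6).

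Of the genes of the helicase eIF4A, Eif4a1 was lower and Eif4a2 did not pass. Eif4a1, the main helicase of initiation and the most abundant member of all, read 580.4, 576 and 589 FPKM in Aa-cko and 813, 785 and 758 in Aa-flox (-0.43 ± 0.10, adjusted p = 0.00638, and 0.0722 under upper quartile scaling). Eif4a2, its close relative, read 114, 109 and 120.4 FPKM in Aa-cko and 98.8, 97.3 and 102 in Aa-flox. It was the only member with every Aa-cko value above every Aa-flox value among those tested, and it did not pass (0.20 ± 0.09, adjusted p = 0.101), although it did under upper quartile scaling and with the length trend removed (lowest adjusted p = 0.0184). The ratio of Eif4a1 to Eif4a2 was 5.09, 5.28 and 4.90 in Aa-cko and 8.22, 8.07 and 7.43 in Aa-flox. The groups were apart by log2 -0.63, at the smallest p this design allows (exact permutation test, two-sided p = 0.1, adjusted 0.3). A share of 28.4% of the 50-base stretches of Eif4a1 occur in other transcripts, chiefly the pseudogene Eif4a-ps4.

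Eif4a3, a related helicase that works in the exon junction complex rather than in initiation, read 90.3, 100.1 and 81.2 FPKM in Aa-cko and 139, 129 and 122 in Aa-flox (-0.52 ± 0.11, adjusted p = 0.00387). Its copies Eif4a3l1 and Eif4a3l2 were listed at 0. Of the 50-base stretches of Eif4a3, 16.5% are shared with other genes, chiefly Gm5576. The helicase cofactors were both lower. Eif4b read 74.7, 65.8 and 78.5 FPKM in Aa-cko and 92.2, 96.9 and 109 in Aa-flox (-0.44 ± 0.11, adjusted p = 0.00921), and Eif4h fell by 0.34 ± 0.10 (adjusted p = 0.0204), to 108, 117 and 114 FPKM in Aa-cko against 159, 133 and 141 in Aa-flox. The call for Eif4h ended without the first Aa-cko or the first Aa-flox library (highest adjusted p over the alternatives 0.163). In human cells, the mRNAs of eIF3e, eIF3f, eIF3h and eIF4B are known to carry a 5' terminal oligopyrimidine tract, through which mTOR controls their translation, and of these 4 genes only Eif4b passed.

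None of the 3 eIF4G scaffold genes passed. Eif4g1, the main scaffold, had the widest SE of the 48 tested members, at 44.7, 31.9 and 51.5 FPKM in Aa-cko and 48.8, 53.9 and 66.4 in Aa-flox (-0.41 ± 0.17, adjusted p = 0.0847), and it passed without the last Aa-cko library. Eif4g2, which encodes the scaffold DAP5 that lacks the eIF4E-binding part, was far more abundant, at 279, 255 and 314 FPKM in Aa-cko and 336, 342.5 and 357 in Aa-flox, and missed the threshold (-0.29 ± 0.11, adjusted p = 0.051). Eif4g2 was called lower in 5 of 17 alternatives, among them the omission of the last Aa-cko library (adjusted p = 0.0178). Eif4g3 read 15.6, 12.6 and 16.2 FPKM in Aa-cko and 11.96, 13.03 and 13.9 in Aa-flox, with overlap (0.17 ± 0.13, adjusted p = 0.293). The ratio of Eif4g1 to Eif4g3 was 2.87, 2.52 and 3.18 in Aa-cko and 4.08, 4.14 and 4.78 in Aa-flox, without overlap (log2 difference -0.60, exact permutation p = 0.1, adjusted 0.3). The ratio of Eif4g1 to Eif4g2 overlapped (log2 difference -0.12, exact p = 0.6).

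**Figure D4:**
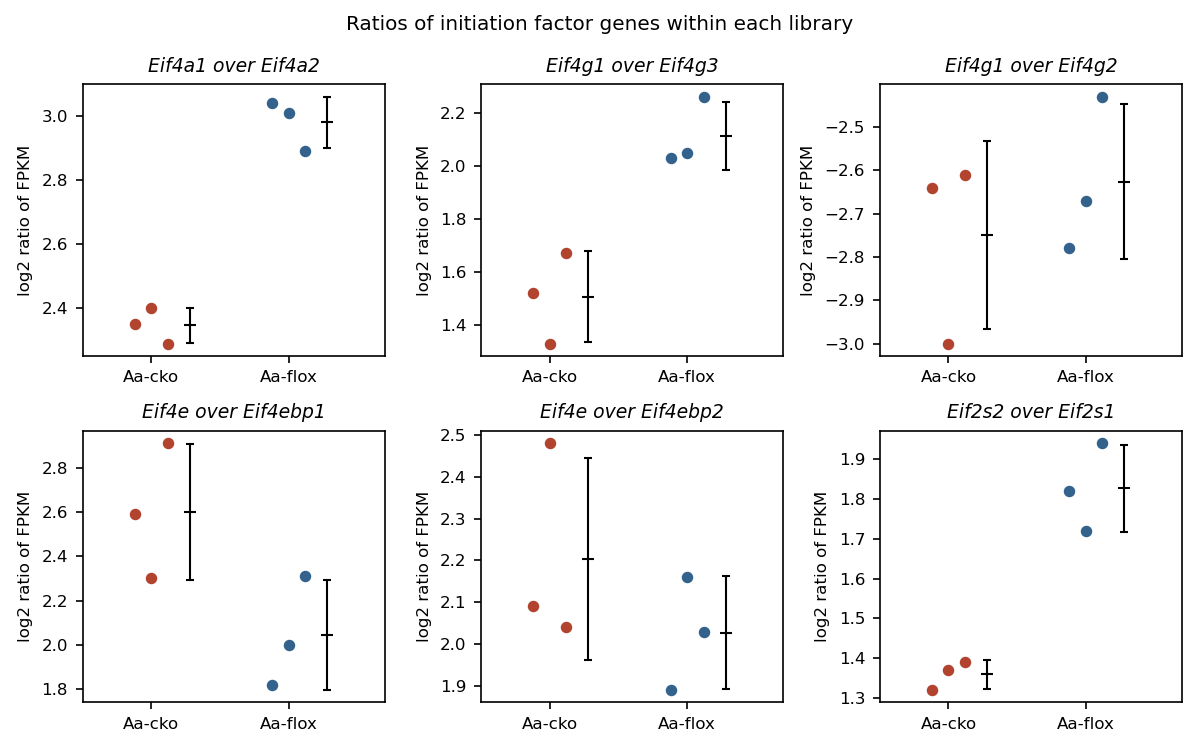
Log2 ratio of the FPKM of 2 genes in each library (y axis, which does not start at 0), Aa-cko in red and Aa-flox in blue, with mean ± SD beside the points (n = 3 each). The groups are apart for Eif4a1 over Eif4a2, Eif4g1 over Eif4g3 and Eif2s2 over Eif2s1 and overlap or touch for the other ratios.

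The members that fell and those that did not are set beside their promoter sequence here. RefSeq promoters (GRCm38.p6) were found for 38 of the 48 tested members, with 50 start sites, some of them overlapping. In the 250 bases before the start, the E-box CACGTG, the palindromic site that MYC and related factors bind, occurred at 11 of the 50 start sites (22.0%), against 6.63% of 21263 start sites of protein-coding genes. It occurred at 3 of 20 start sites of called members (15.0%) and at 8 of 30 of members not called (26.7%), of which 3 are overlapping windows of Eif5a. Every motif was searched on both strands, and the ETS core CCGGAAG occurred at 24.0% of member start sites and 8.98% of all. The CCAAT box stood at 24.0% of member start sites and 35.4% of all, the motif of NRF1 at 18% and 5.18%, and the cAMP response element TGACGTCA at 0 of 50 and 1.92%. These shares count a gene once per start site, and 9 of the 38 member genes held an E-box. The members shown passed the filter, while the comparison takes protein-coding genes whether detected or not. A share for the tested genes alone is not given, so a motif cannot be called particular to initiation factors. The windows of Eif4a1, which was lower in Aa-cko, and of Eif4g1, which did not pass, are shown for the place of the E-box, in capitals, 5' to 3' on the gene's strand, each ending at the base before the start. They lie at chr11:69672424-69672673 on the minus strand and at chr16:20672477-20672726 on the plus strand.
Eif4a1: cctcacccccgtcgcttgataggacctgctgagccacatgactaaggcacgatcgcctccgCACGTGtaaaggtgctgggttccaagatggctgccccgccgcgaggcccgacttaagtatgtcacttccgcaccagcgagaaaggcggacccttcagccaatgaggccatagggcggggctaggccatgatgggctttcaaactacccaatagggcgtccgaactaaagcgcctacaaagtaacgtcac
Eif4g1: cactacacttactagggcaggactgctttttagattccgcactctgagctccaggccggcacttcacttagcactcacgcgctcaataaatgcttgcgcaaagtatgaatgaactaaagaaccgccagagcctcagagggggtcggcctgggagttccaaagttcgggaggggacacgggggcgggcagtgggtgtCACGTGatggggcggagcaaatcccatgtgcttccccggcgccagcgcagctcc
The E-box begins 24 bases before the RefSeq start in Eif1b, 189 in Eif4a1, 96 in Eif4h and 54 in Eif4g1. By the GENCODE gene bounds, the windows of Eif1b and Eif4g1 lie inside the gene and that of Eif4h lies partly inside it. Only the window of Eif4a1 lies wholly upstream of its gene, so the E-boxes of Eif1b and Eif4g1 fall within the annotated gene. A match describes these letters and is not shown to be a bound site.

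In the eIF5 group 1 of 4 genes was lower, a share of 25.0% near the 23.2% of all tested genes. Eif5b, the GTPase that joins the ribosomal subunits, read 14.4, 12.9 and 15.6 FPKM in Aa-cko and 17.1, 19.1 and 19.2 in Aa-flox (-0.35 ± 0.12, adjusted p = 0.0339). Its call ended in 8 of 17 alternatives, among them the omission of the first or the second Aa-cko library or of the second or the last Aa-flox library (highest adjusted p = 0.14). It shares 14.3% of its 50-base stretches with Rev1. Eif5, which triggers GTP hydrolysis by eIF2, read 215, 212 and 252 FPKM in Aa-cko and 229, 244 and 256 in Aa-flox, with overlap (-0.10 ± 0.11, interval -0.34 to 0.14).

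Eif5a, the hypusine-carrying factor that relieves stalled ribosomes, read 494, 539 and 470 FPKM in Aa-cko and 629, 547 and 561 in Aa-flox. The groups did not overlap, and the gene did not pass (-0.21 ± 0.11, adjusted p = 0.15). Its paralog Eif5a2 was barely above the filter, at 1.84, 1.18 and 2.13 FPKM in Aa-cko and 1.41, 1.84 and 1.99 in Aa-flox (-0.03 ± 0.17). The ratio of Eif5a to Eif5a2 overlapped between the groups (log2 difference -0.16, exact p = 0.6). Eif6, which keeps large subunits from joining too early, read 72.0, 97.9 and 67.1 FPKM in Aa-cko and 98.8, 80.9 and 75.9 in Aa-flox (-0.12 ± 0.15, interval -0.46 to 0.22).

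Of 11 regulators of eIF2 phosphorylation 2 were higher (18.2%), 3 lower (27.3%) and 6 did not pass, shares near the 19.2% higher and 23.2% lower of all tested genes. Impact, which holds back the kinase GCN2, read 22.8, 17.6 and 26.6 FPKM in Aa-cko and 10.6, 10.7 and 10.2 in Aa-flox (1.01 ± 0.15, adjusted p = 0.000636). Ppp1r15a, the stress-induced phosphatase subunit GADD34 that restores eIF2, read 452, 441 and 437.5 FPKM in Aa-cko and 346, 304 and 274 in Aa-flox (0.53 ± 0.11, adjusted p = 0.00434). Its constitutive counterpart Ppp1r15b read 36.5, 29.3 and 42.3 FPKM in Aa-cko and 48.9, 48.6 and 61.5 in Aa-flox (-0.55 ± 0.15, adjusted p = 0.0134), a call that ended without the last Aa-flox library (adjusted p = 0.0502). Gcn1, the activator of GCN2, and Ppp1cc, a catalytic phosphatase subunit, fell by 0.45 and 0.36, and both calls ended under upper quartile scaling and without the first Aa-cko or the first Aa-flox library, that of Gcn1 also without the second Aa-cko or the last Aa-flox one. The kinases Eif2ak1, Eif2ak2, Eif2ak3 and Eif2ak4 were not called and had values of log2 -0.00, -0.11, -0.06 and -0.01. Atf4, whose translation eIF2 phosphorylation favours, did not pass at the RNA level (-0.21 ± 0.10, adjusted p = 0.11) and was called lower in 4 of 17 alternatives. Ddit3, the stress-response gene of CHOP, read 138, 161 and 146 FPKM in Aa-cko and 126, 122 and 100.1 in Aa-flox in the more abundant of the rows with that symbol (0.36 ± 0.12, adjusted p = 0.0316). Its call ended in 8 of 17 alternatives, among them the omission of the first or the second Aa-cko library or of the second or the last Aa-flox library (highest adjusted p = 0.123).

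Of 23 tested genes of mTOR signalling and cap binding, 7 were lower (30.4%) and 1 higher, where 23.2% of all tested genes and 27.8% of those with a mean of at least 10 FPKM were lower. Ncbp1, the nuclear cap-binding subunit, read 28.9, 28.03 and 29.6 FPKM in Aa-cko and 47.1, 44.4 and 51.7 in Aa-flox (-0.71 ± 0.10, adjusted p = 0.000489). Ddx3x, an RNA helicase of initiation, fell by 0.65 ± 0.12, Larp1, a binder of terminal oligopyrimidine mRNAs, by 0.65 ± 0.14, and Paip1, a partner of the poly(A)-binding protein, by 0.50 ± 0.11. Mknk2, a kinase of eIF4E, was higher (0.35 ± 0.10, adjusted p = 0.0202), a call that ended in 6 of 17 alternatives, among them the omission of the first Aa-cko library or of the second or the last Aa-flox library. Mtor did not pass (-0.36, adjusted p = 0.159). Abce1, the ribosome recycling ATPase, was the only 1 of 6 recycling and hypusination genes to pass (16.7%, against 23.2% lower of all tested genes), at 23.3, 23.1 and 27.6 FPKM in Aa-cko and 42.4, 40.0 and 46.1 in Aa-flox (-0.78 ± 0.11, adjusted p = 0.000544).

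Of 10 elongation and release factors 3 were lower (30%, against 23.2% of all tested genes and 27.8% of those with a mean of at least 10 FPKM), namely Eef1e1, an accessory protein of the tRNA synthetase complex (-0.92 ± 0.12), and the release factor genes Gspt1 (-0.53 ± 0.11) and Etf1 (-0.44 ± 0.09), while Eef1a1 and Eef2, the main elongation factors, had log2 fold changes of 0.06 and -0.01. Of 80 tested cytosolic ribosomal protein genes 0 were lower and 1 higher by limma, with the same counts at an unadjusted p under 0.05, and their median log2 fold change was 0.12. The higher gene was Rps4l (0.69, adjusted p = 0.00695). Without the last Aa-cko library 9 ribosomal protein genes and 2109 of all tested genes were higher. With the length trend removed 6 ribosomal protein genes and 2838 of all tested genes were lower. The mitochondrial factors Mtif2 and Mtif3 did not pass (-0.05 and -0.27). Whether the lists differ from each other was not tested.

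**Figure D5:**
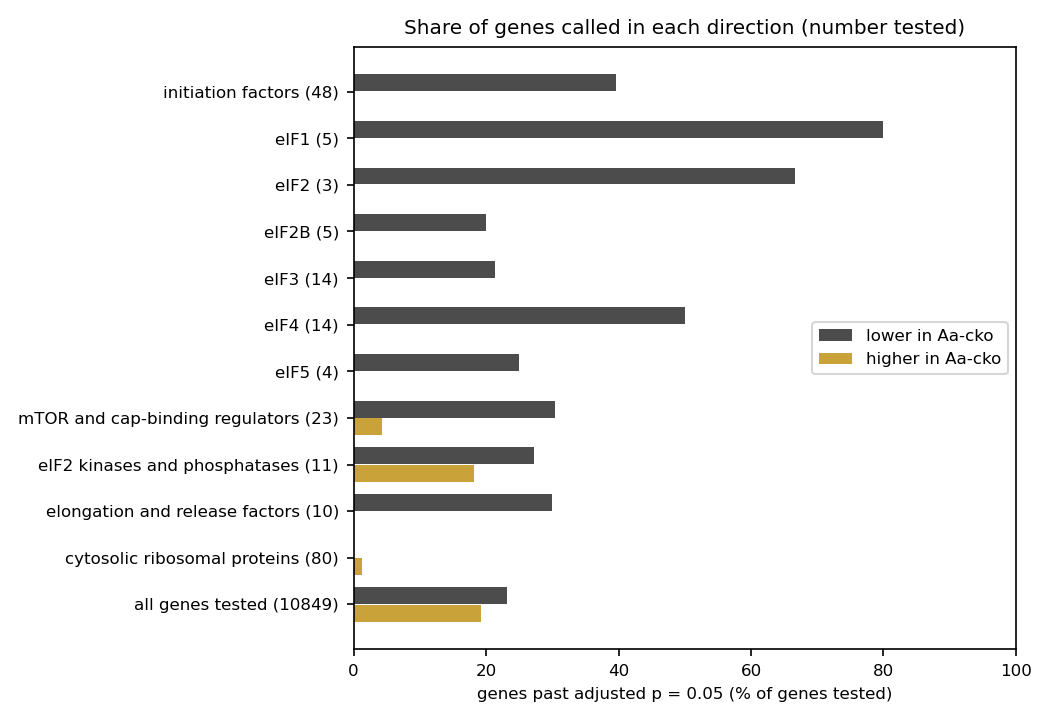
Share of tested genes past an adjusted p of 0.05 (x axis, %), lower in Aa-cko in grey and higher in yellow, for the initiation factors, their groups and neighbouring lists, with the number of genes tested in parentheses. Initiation factors show 39.6% lower and 0% higher, cytosolic ribosomal proteins 0% lower and 1.25% higher, and all tested genes 23.2% lower and 19.2% higher.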

How the data were processed

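FPKM values for 21965 genes in 6 libraries were computed and deposited by the authors. Per the labels' protocols, an RNeasy kit yielded the RNA and a SMARTER mRNA-Seq kit the libraries. The submitters' processing notes name the build mm10. Which aligner, quantifier and annotation made the values is not given in the sources used here. Positions, exon lengths and shared sequence came from GENCODE mouse release M21, in which all 68 members were found.

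Depth was inferred from single-transcript genes, whose low FPKM values are whole multiples of 1 fragment. The depths found made 87.7 to 91.0% of held-out low values whole within 0.1 fragment, against 20.0% by chance. The 10849 genes that reached 1 FPKM in 3 or more libraries entered one limma fit (version 3.58.1, R 4.3.3) of log2(FPKM + 1) on group alone. Variances were moderated robustly along an intensity trend, with Benjamini-Hochberg adjustment over all these genes. Within a group, libraries had Pearson correlations of 0.982 to 0.992. Lists are described by counts and medians, with no test of a list. Ratios were compared by exact permutation over libraries, two-sided. Every member past the threshold was named, with all tested members of the eIF2, eIF2B, eIF4 and eIF5 groups and up to 4 genes with the smallest p per neighbouring list. Gcn1 and Mknk2, which complete a count, and Stk11, Atf4, Ddit3, Mtor, the kinases, the main elongation factors and the other eIF1, eIF3 and eIF6 members were added for context, with values known. The members and lists were chosen with earlier results of these data known. On simulated data for this comparison (10849 genes) the steps recovered 76.1% of genes changed 1.5-fold and 100% of those changed 2-fold or 4-fold, and 13 of 197 calls were false. The simulation took every gene as 2 kb long, with one fixed level of variation between libraries. It changed few genes and held no shift in scaling and no length trend, so these rates need not hold for the real libraries.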

Additional observations from a re-analysis of the deposited data

How the results depend on the processing

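The 17 alternatives covered scaling, pseudocount, filter, variance moderation, threshold, a block on replicate number, each library left out and, chosen after seeing the data, a trend with exon length. Pseudocounts of 0.1 and 0.5 left 19 members called, with 2502 and 2511 of all genes lower and 2076 and 2087 higher. The filter at a mean of 5 FPKM left 21 members called, with 2097 of all genes lower and 1533 higher. Upper quartile scaling gave 1 initiation factor higher and 10 lower, of which 0 lower in eIF2B, 1 in eIF3, 0 in eIF5 and 1 higher and 4 lower in eIF4, with 1 eIF2 regulator and 4 cap-binding regulators lower and 1 recycling factor higher. Its sign differed from the main one for Eif2b2 (0.014), Eif3h (0.111), Eif3m (0.033), Eif4e2 (0.121), Eif4e3 (0.120), Eif5 (0.033), Eif5a2 (0.059) and Eif6 (0.018), none of them called. The TPM scale gave 1 higher (in eIF4, Eif4ebp3) and 3 lower in eIF2B, 6 in eIF3 and 2 in eIF5, with 0 cap-binding regulators higher, and turned Eif2d (-0.025), Eif3f (-0.036) and Stk11 (-0.040). Scaling without the 20 most abundant genes gave 2 lower in eIF2B and 2 in eIF5, with 0 cap-binding regulators higher. Of all genes, 2584 were lower and 1737 higher on that scale. With no filter 1 member was higher (in eIF4, 1) and 0 eIF5 genes were lower, with 2181 of all genes lower and 1926 higher. Without an intensity trend 2 eIF2B genes were lower, with 2492 of all genes lower and 2088 higher. With the length trend removed 2 members were higher (both in eIF4, Eif4a2 and Eif4g3), 3 lower in eIF2B and 6 in eIF3, with 6 ribosomal protein genes lower, and Eif3f (-0.018), Eif4e2 (0.088) and Eif5a2 (0.016) turned. That removal left 2838 of all genes lower and 2155 higher. At an adjusted p of 0.01, 1269 of all genes were higher and 1479 lower, and 0 genes of eIF2B, eIF5 and the eIF2 regulators were lower and 0 cap-binding regulators higher.

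Leaving out each library gave 0 to 2 lower in eIF2B, 0 to 1 in eIF5, 1 to 3 among eIF2 regulators and 4 to 8 among cap-binding regulators (0 to 1 higher), with 0 to 1 recycling factors and 1 to 9 ribosomal protein genes higher. Over all tested genes these fits called 1793 to 2735 lower and 1502 to 2109 higher. Log2 fold changes that changed sign ran from -0.093 to 0.140 for Eif4e3, -0.006 to 0.105 for Eif2d, -0.029 to 0.139 for Eif3f, -0.137 to 0.125 for Eif5a2, -0.246 to 0.051 for Eif2b2, -0.116 to 0.066 for Eif3h, -0.089 to 0.075 for Eif4e2 and -0.014 to 0.137 for Stk11. Log2 differences of ratios ran from -0.460 to 0.067 for Eif5a over Eif5a2 and -0.201 to 0.003 for Eif4g1 over Eif4g2. Replicate numbers gave no clear pairing of the libraries: deviations of same-numbered libraries correlated at -0.018, 0.188 and 0.522. The first and the second Aa-cko library correlated better with another number (0.02 and 0.365), and the last correlated best with its own. Whether the libraries were paired cannot be settled by these correlations. With the replicate block 24 members were lower (2 in eIF2B, 5 in eIF3), 1 recycling factor and 4 ribosomal protein genes were higher, and all 19 called members were kept. Over all tested genes the block gave 3058 lower and 2451 higher. The causes of these changes were not tested.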

Other observations

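Eif2s3y, the Y-linked copy of the gamma subunit of eIF2, lies outside the members. It read 8.83, 8.03 and 8.92 FPKM in Aa-cko and 20.6, 15.8 and 17.5 in Aa-flox (log2 -0.98 ± 0.13, adjusted p = 0.00036), and the other Y-linked genes Ddx3y, Uty and Kdm5d were lower as well (-1.33, -1.10 and -0.92), while Eif2s3x stood at -0.15. All 4 Y-linked genes were detected in every library. The labels give no sex, and what moved these genes was not tested.

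Replicates of a group differed along gene length. Over 10834 tested genes, the deviation of a library from its group mean had a Spearman correlation with exon length of -0.54 in the second and 0.51 in the last Aa-cko library, and of -0.31 in the first and 0.42 in the last Aa-flox library. The log2 fold change correlated with exon length at -0.24 over all these genes and at 0.04 over the 48 tested initiation factors. Genes of one library share its depth and preparation, so these values describe the libraries only. With the trend removed, 17 of the 19 called members kept their call, Eif1ax and Eif5b lost it, and 9 others gained one, among them Eif5a (-0.33, adjusted p = 0.00543) and Eif1 (-0.31, adjusted p = 0.00495). Calls over all tested genes then stood at 2838 lower and 2155 higher.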
